A study of Homo sapiens with 6 samples.

Results

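The genes described here are 10 members of the interleukin-6 (IL-6) signalling system, namely the ligands IL6, LIF, IL11 and CLCF1, the receptor chains IL6ST, IL6R, LIFR and OSMR, the feedback inhibitor SOCS3 and the transcription factor STAT3. They were taken by symbol from a gene table of 60616 identifiers, and all 10 were present and had enough counts to be tested. The study sequenced RNA from 12Z cells, a wild-type immortalized human endometriotic line used as a model of endometriosis, in which endometrium-like tissue grows outside the uterus. One group of 3 libraries came from cells given frankincense extract, a preparation of Boswellia resin, at 70 ug/mL in DMSO for 12 h, and the other 3 libraries came from cells given DMSO as vehicle. Both groups grew in medium with 10% charcoal-stripped serum and are the same line, so the libraries sample 1 cell line and no separate donors. Since no label says whether the replicates were cultured apart, each p-value reflects the variation among the 6 libraries alone, which could be technical in origin.

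Ligands of the IL-6 family signal through a shared receptor chain, gp130, which IL6ST encodes, together with other chains. These include IL6R for IL-6, IL11RA for IL-11, LIFR for LIF, and OSMR or LIFR for oncostatin M. Receptor assembly activates Janus kinases, which phosphorylate STAT3, and STAT3 then enters the nucleus and induces target genes, among them SOCS3, whose protein binds gp130 and its kinases and dampens the signal. IL-6 is raised in peritoneal fluid in endometriosis, and LIF and IL-11 are best known in the uterus for their roles in implantation and decidualization. RNA levels were measured here, and neither secreted ligand nor phosphorylated STAT3 was.

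Of the 10 genes, 3 were called higher with the extract (IL6, LIF and IL6ST), 5 were called lower (IL11, CLCF1, IL6R, LIFR and SOCS3) and 2 were not called (OSMR and STAT3). A call is an adjusted p under 0.05 in edgeR's quasi-likelihood test over 16719 genes. Calls were common in this comparison: 62.9% of all tested genes were called, 31.9% higher and 31% lower, so 8 of 10 is not far from the background. The median log2 fold change was -0.24 over the 10 genes and -0.0016 over all tested genes. In 8 of the 10 genes the values of both groups did not overlap, against 67.5% of all tested genes. On the TPM scale, which divides by transcript length and sets every library to the same total, the median of all genes moved up by 0.20 (log2) and the split of the 10 genes became 4 higher and 3 lower. After the TPM were rescaled without mitochondrial genes, that median was 0.05 and the split 3 higher and 4 lower. Folds below are from the count test, and directions that turn on the TPM scale are named beside the gene. In these bulk RNA samples, fewer cells expressing a gene and less RNA per cell cannot be told apart.

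**Figure D1:**
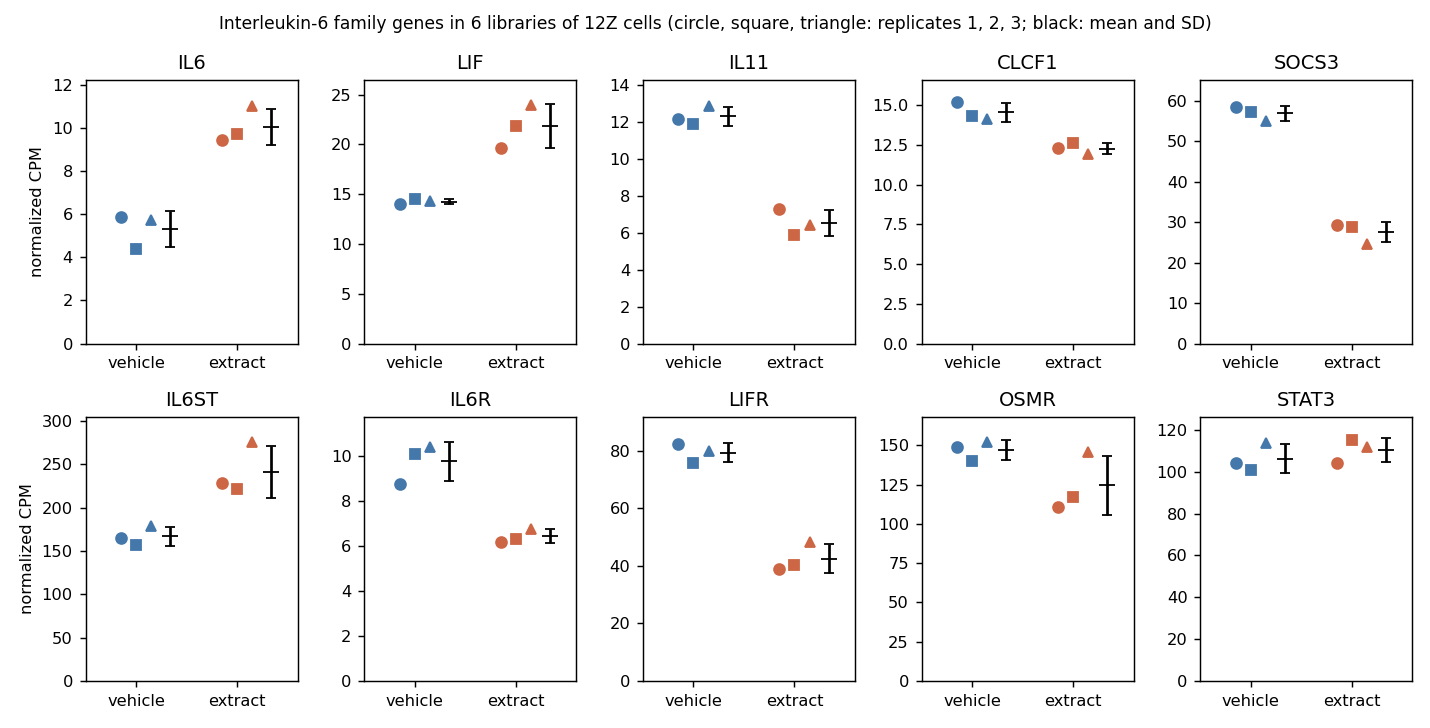
Normalized CPM, counts scaled for library size and composition (y axis, starting at 0) of each gene in the 3 vehicle and 3 extract libraries; symbols mark replicates 1 to 3 and black bars the mean and SD. IL6, LIF and IL6ST were higher in every extract library, IL11, CLCF1, SOCS3, IL6R and LIFR were lower in every one, and OSMR and STAT3 overlapped.

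Promoter windows for the pair of ligands and the pair of receptor chains that moved in opposite directions are shown here, so that the sequence beside each start can be read next to the change of its gene. They are RefSeq windows (GRCh38.p14) of 250 bases before to 50 bases after an annotated start, read 5′ to 3′ on the gene's strand. Capitals mark matches, on either strand, to a STAT motif (TTCNNNGAA), an AP-1 motif (TGANTCA), a C/EBP motif (TTNNGNAA) or the kappaB consensus. The windows are IL6 at chr7:22726950-22727249 on the plus strand, and on the minus strand IL11 at chr19:55370414-55370713, IL6ST at chr5:55994914-55995213 and the most upstream of 3 LIFR windows at chr5:38595356-38595655.
IL6: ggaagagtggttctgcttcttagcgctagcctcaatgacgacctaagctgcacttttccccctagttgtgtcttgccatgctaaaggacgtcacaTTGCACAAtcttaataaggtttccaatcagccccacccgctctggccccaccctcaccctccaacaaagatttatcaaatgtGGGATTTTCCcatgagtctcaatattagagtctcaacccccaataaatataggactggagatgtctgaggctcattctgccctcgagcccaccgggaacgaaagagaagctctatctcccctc
IL11: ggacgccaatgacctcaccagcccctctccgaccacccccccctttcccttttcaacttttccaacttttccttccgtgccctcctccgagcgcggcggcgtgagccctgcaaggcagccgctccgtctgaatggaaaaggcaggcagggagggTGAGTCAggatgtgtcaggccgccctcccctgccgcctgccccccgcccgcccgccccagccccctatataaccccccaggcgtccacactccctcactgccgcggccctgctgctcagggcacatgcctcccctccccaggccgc
IL6ST: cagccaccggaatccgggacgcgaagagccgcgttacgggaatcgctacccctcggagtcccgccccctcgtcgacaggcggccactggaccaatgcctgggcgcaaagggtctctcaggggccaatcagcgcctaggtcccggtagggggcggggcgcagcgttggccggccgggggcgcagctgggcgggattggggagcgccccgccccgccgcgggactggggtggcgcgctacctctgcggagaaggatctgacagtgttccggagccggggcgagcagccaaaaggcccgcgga
LIFR: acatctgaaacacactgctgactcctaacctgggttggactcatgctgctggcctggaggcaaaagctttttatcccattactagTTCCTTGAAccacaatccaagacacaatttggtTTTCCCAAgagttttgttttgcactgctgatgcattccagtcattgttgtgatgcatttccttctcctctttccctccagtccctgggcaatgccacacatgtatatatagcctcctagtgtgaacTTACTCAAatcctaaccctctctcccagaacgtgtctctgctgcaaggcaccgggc

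The IL6 window held a C/EBP match 155 to 148 bases before the start and a kappaB match, GGGATTTTCC, 73 to 64 bases before it. IL11 held an AP-1 match, TGAGTCA, 96 to 90 bases before its start. LIFR held a STAT match, TTCCTTGAA, 165 to 157 bases before the start and 2 C/EBP matches, the second of which crosses the start itself. IL6ST held none of the 4 motifs in a window of 72.7% G and C. The other LIFR windows differed: the one at chr5:38557418-38557717 held 4 matches and the one at chr5:38556597-38556896, with 81.7% G and C, held 0. Among 35116 promoter windows of the same length, 7.66% held the STAT motif, 7.71% the AP-1 motif, 36.8% the C/EBP motif and 5.91% the kappaB consensus. These letter matches describe the windows, and no binding was measured. Windows were found for 8 of the 10 genes.

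IL6 and LIF, which both signal through gp130, rose with the extract, while IL11 fell. IL6 (ENSG00000136244, chr7:22725884-22732002, plus strand) encodes the inflammatory cytokine after which the family is named. It stood at 5.87, 4.37 and 5.74 normalized CPM (counts scaled for library size and composition) in vehicle replicates 1 to 3 and at 9.44, 9.7 and 11 in the extract replicates. All 3 extract libraries were above all 3 vehicle libraries, and vehicle replicate 2 was the lowest. The change was 1.89-fold (log2 0.92 ± 0.12 SE, edgeR adjusted p = 1.3e-05), from 394 to 743 expected counts summed over each group. On the TPM scale IL6 went from 9.42 ± 2.33 to 20.1 ± 2.69 (SD, n = 3 each).

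LIF (ENSG00000128342, chr22:30240447-30246851, minus strand) encodes leukaemia inhibitory factor. Its normalized CPM was 14, 14.5 and 14.3 with vehicle and 19.6, 21.9 and 24 with the extract. Vehicle values lay within a narrow range and every extract value was higher, with extract replicate 3 the highest. LIF rose 1.53-fold (log2 0.61 ± 0.083 SE, edgeR adjusted p = 1.6e-05), and in TPM from 4.89 ± 0.275 to 8.94 ± 2.11 (SD, n = 3 each). Antisense genes overlap both loci and the strand used in counting is not stated, but LIF-AS2 held means of only 16 and 21 counts and IL6-AS1 of 0 and 1.16.

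IL11 (ENSG00000095752, chr19:55364389-55370463, minus strand) encodes a cytokine linked to decidualization and to fibrotic responses of stromal cells. It measured 12.2, 11.9 and 12.9 normalized CPM with vehicle and 7.28, 5.91 and 6.44 with the extract. The groups were well apart, with no extract library near a vehicle library. The fall was 1.89-fold (log2 -0.91 ± 0.099 SE, edgeR adjusted p = 1.5e-06), the same size as the IL6 rise in the other direction. Its TPM fell from 9.82 ± 0.792 to 5.89 ± 0.686 (SD, n = 3 each).

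The order of the ligands by TPM therefore differed between groups. With vehicle, IL11 and IL6 had overlapping ranges, and the ratio of IL6 to IL11 within a library was 1.13, 0.735 and 1. With the extract it was 2.65, 3.88 and 3.83. The ratio of LIF to IL11 went from 0.499 ± 0.0336 to 1.54 ± 0.407 (SD, n = 3 each), again with no overlap. These ratios were chosen after the single genes had been seen and restate their changes, so no test is given.

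CLCF1 (ENSG00000175505, chr11:67364168-67374177, minus strand) encodes a ligand that acts through the ciliary neurotrophic factor receptor. It showed 15.2, 14.3 and 14.1 normalized CPM with vehicle and 12.3, 12.6 and 11.9 with the extract, a fall of 1.19-fold (log2 -0.25 ± 0.079 SE, edgeR adjusted p = 0.0139). The groups did not overlap, but the difference was small. The call was lost when vehicle replicate 1 was left out (-0.21, adjusted p = 0.0644), with DESeq2 (-0.24, adjusted p = 0.0877) and with scaling by library size only (-0.17, adjusted p = 0.076), and on log2(TPM + 1) the direction turned (0.01, limma adjusted p = 0.919). A protein-coding gene on the same strand, ENSG00000256514, overlaps CLCF1 with means of 327 and 299 counts, and RAD9A overlaps it on the other strand, so reads may be divided between these genes and the CLCF1 value is uncertain.

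Of 6 other ligand genes of the family (CNTF, CTF1, OSM, IL27, EBI3 and IL31), 3 were tested, none was called higher and 2 were called lower, with a median of -1.06. Over all tested genes, 31.9% were called higher and 31% lower. EBI3, a subunit of interleukin-27 and interleukin-35, fell 2.95-fold (log2 -1.56 ± 0.41 SE, edgeR adjusted p = 0.0054), from 1.83 ± 0.557 to 0.757 ± 0.584 TPM (SD, n = 3 each), which is a low level. Vehicle replicates 1 to 3 had 22, 45 and 48 counts and extract replicates 1 to 3 had 7, 8 and 23. Extract replicate 3 thus lay close to vehicle replicate 1, at 0.943 against 0.994 normalized CPM. The log2 fold change was -2.30 without extract replicate 3 and -1.25 without extract replicate 1. On log2(TPM + 1) the list had 1 member higher and 2 lower. OSM, the oncostatin M gene, was not tested: it had 2 counts in 1 vehicle library, 1 count in 1 extract library and none in the other 4.

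Among the receptor chains, IL6ST rose while IL6R and LIFR fell. IL6ST (ENSG00000134352, chr5:55935095-55994993, minus strand), which encodes gp130, was at 165, 157 and 179 normalized CPM with vehicle and at 228, 221 and 276 with the extract. Every extract library was above every vehicle library, and extract replicate 3 was the highest. The rise was 1.45-fold (log2 0.53 ± 0.082 SE, edgeR adjusted p = 0.00011), and it was log2 0.44 without extract replicate 3. In TPM, IL6ST went from 23.3 ± 1.8 to 40.9 ± 6.87 (SD, n = 3 each).

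LIFR (ENSG00000113594, chr5:38474963-38608354, minus strand) encodes the chain that pairs with gp130 for LIF. It measured 82.3, 75.8 and 80.1 normalized CPM with vehicle and 39, 40.2 and 48.2 with the extract. The extract values were close to each other and far under the vehicle values, with extract replicate 3 again the highest of its group. LIFR fell 1.87-fold (log2 -0.90 ± 0.074 SE, edgeR adjusted p = 1.5e-07), and from 9.93 ± 0.839 to 6.19 ± 1.56 TPM (SD, n = 3 each). The antisense gene LIFR-AS1 at this locus had means of 67 and 41.3 counts.

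IL6R (ENSG00000160712, chr1:154405193-154469450, plus strand) encodes the IL-6 binding chain, whose shed form lets IL-6 act on cells that lack it. Its normalized CPM was 8.76, 10.1 and 10.4 with vehicle and 6.19, 6.29 and 6.77 with the extract. These are low values, but the groups did not overlap. IL6R fell 1.52-fold (log2 -0.61 ± 0.1 SE, edgeR adjusted p = 0.00012). On log2(TPM + 1) the fall was -0.24 and was not called (limma adjusted p = 0.112), from 2.28 ± 0.0643 to 1.78 ± 0.347 TPM (SD, n = 3 each). It was called there when mitochondrial genes were left out (-0.40, limma adjusted p = 0.0265) or extract replicate 3 was (-0.34, limma adjusted p = 0.026).

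OSMR (ENSG00000145623, chr5:38845858-38945596, plus strand) encodes the oncostatin M receptor chain and had the highest TPM of the 10 genes in both groups. It stood at 149, 140 and 152 normalized CPM with vehicle and at 111, 117 and 146 with the extract. Extract replicates 1 and 2 were under all vehicle libraries, while extract replicate 3 lay inside the vehicle range. The difference was log2 -0.23 ± 0.093 SE and missed the threshold (edgeR adjusted p = 0.0515). It was called without extract replicate 3 (-0.35, edgeR adjusted p = 5.1e-07) and in 7 other settings, while on log2(TPM + 1) the direction turned (0.10, limma adjusted p = 0.483). On that scale it was -0.09 without mitochondrial genes and -0.04 without extract replicate 3, neither of them called. RICTOR overlaps OSMR on the opposite strand with means of 2376 and 2023 counts, so the value is uncertain.

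**Figure D2:**
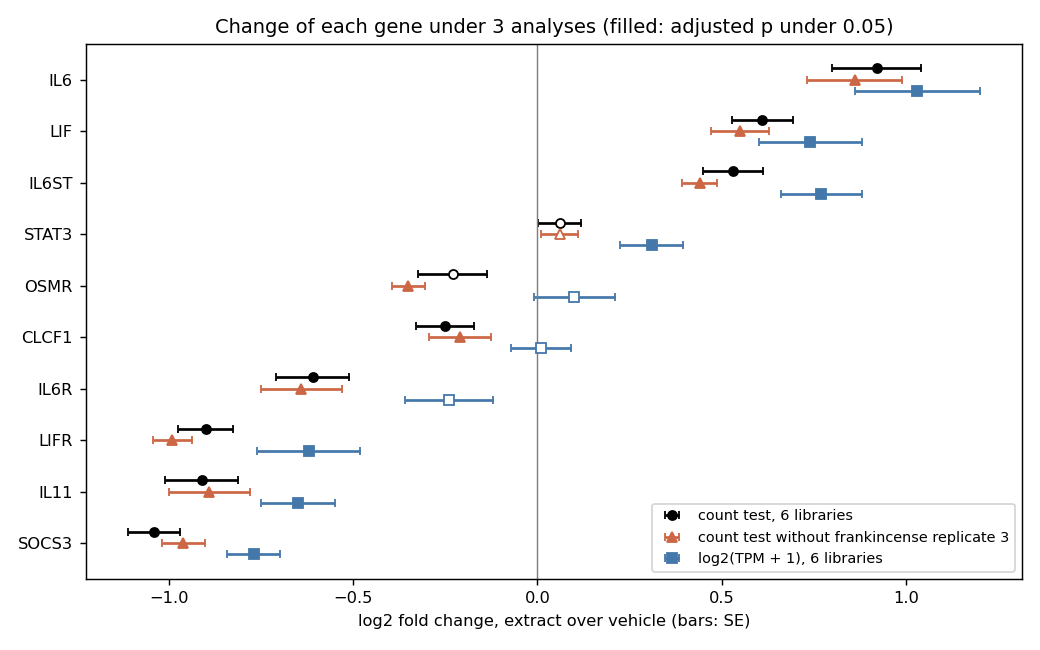
Log2 fold change of each gene, extract over vehicle (x axis, bars SE), from the count test on 6 libraries (circles), the count test without extract replicate 3 (triangles) and limma on log2(TPM + 1) (squares); filled symbols have an adjusted p under 0.05. IL6, LIF, IL6ST, LIFR, IL11 and SOCS3 keep their side of 0 and their call in all 3, OSMR and CLCF1 cross 0 on the TPM scale, and STAT3 is called there only.

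Of the other receptor chains IL11RA, CNTFR, IL27RA and IL31RA, 3 were tested, none rose and 2 fell, with a median of -0.63. The counts were the same on log2(TPM + 1). In the count test 31.9% of all tested genes were called higher and 31% lower, so 3 genes show no trend of the receptor chains. IL31RA was not called (log2 -0.21 ± 0.19 SE, edgeR adjusted p = 0.348). IL11RA, the ligand-binding chain for IL-11, was at 16.4, 15.5 and 14.5 normalized CPM with vehicle and at 4.58, 4.5 and 5.29 with the extract. Those groups are far apart, and the fall of 3.22-fold (log2 -1.69 ± 0.099 SE, edgeR adjusted p = 2.7e-09) stood beside the fall of IL11 itself. GALT overlaps IL11RA on the same strand with means of 552 and 537 counts, so the assignment of reads is uncertain. IL27RA, which pairs with gp130 for interleukin-27, fell 1.54-fold (log2 -0.63 ± 0.08 SE, edgeR adjusted p = 8.9e-06).

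Set against IL6ST within each library, the 5 other chains examined stood lower with the extract. The TPM ratio of LIFR to IL6ST was 0.442, 0.415 and 0.42 with vehicle and 0.135, 0.152 and 0.164 with the extract. The ratio of OSMR to IL6ST was 1.86, 1.76 and 1.75 with vehicle and 1.07, 1.13 and 1.1 with the extract. No library of one group lay inside the range of the other for either ratio, although OSMR on its own overlapped. IL6R to IL6ST went from 0.0979 ± 0.00557 to 0.0436 ± 0.0036, IL11RA to IL6ST from 0.602 ± 0.0603 to 0.121 ± 0.00277 and IL27RA to IL6ST from 0.351 ± 0.0253 to 0.155 ± 0.0172 (SD, n = 3 each). Like the ligand ratios, these were chosen after the genes were seen, share IL6ST as denominator and carry no test. They are RNA ratios and say nothing of how many chains reach the cell surface.

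**Figure D3:**
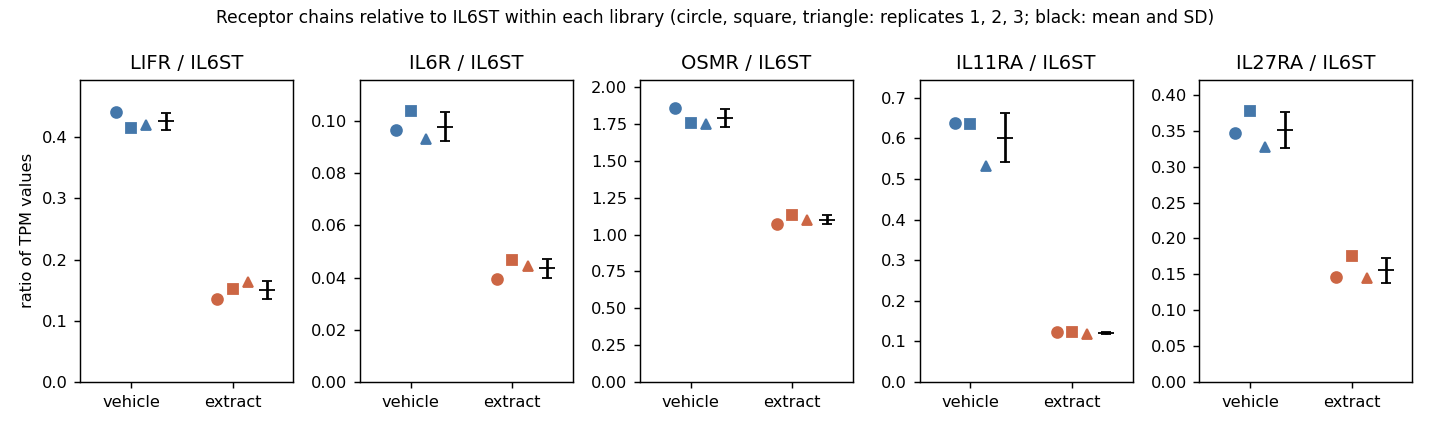
Ratio of the TPM of each receptor chain to that of IL6ST (y axis, starting at 0) in each library; symbols mark replicates 1 to 3 and black bars the mean and SD. All 5 ratios are lower in every extract library than in any vehicle library, for example 0.425 against 0.15 for LIFR.

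SOCS3, the inhibitor that STAT3 induces, fell with the extract. SOCS3 (ENSG00000184557, chr17:78356778-78360077, minus strand) was at 58.4, 57.3 and 54.9 normalized CPM with vehicle and at 29.3, 28.7 and 24.6 with the extract. The replicates of each group lay close together and the groups far apart. The fall was 2.06-fold (log2 -1.04 ± 0.07 SE, edgeR adjusted p = 9.5e-09), and in TPM from 26.4 ± 0.771 to 15.1 ± 0.654 (SD, n = 3 each). Among all tested genes, 11.6% had an absolute log2 fold change at least as large.

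STAT3 itself was close to level in the count test. STAT3 (ENSG00000168610, chr17:42313324-42388568, minus strand) measured 104, 101 and 114 normalized CPM with vehicle and 104, 115 and 112 with the extract. The groups overlapped, and the difference was log2 0.06 ± 0.058 SE (edgeR adjusted p = 0.411). On log2(TPM + 1) it was called higher (0.31, limma adjusted p = 0.0108), from 29 ± 2.23 to 36.2 ± 3.02 TPM (SD, n = 3 each), on a scale where the median of all genes also moved up. Without mitochondrial genes the TPM difference was 0.13 and was not called (limma adjusted p = 0.204). The SOCS3 to STAT3 TPM ratio, chosen after the values were seen, was 0.943, 0.971 and 0.826 with vehicle and 0.47, 0.421 and 0.367 with the extract, with no overlap.

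By TPM, which corrects for length and so allows genes to be ranked, the vehicle order was OSMR (41.8), STAT3 (29), SOCS3 (26.4), IL6ST (23.3), CLCF1 (11.3), LIFR (9.93), IL11 (9.82), IL6 (9.42), LIF (4.89) and IL6R (2.28). Neighbouring ranges overlapped between STAT3 and SOCS3 and along LIFR, IL11 and IL6. With the extract the order was OSMR (45), IL6ST (40.9), STAT3 (36.2), IL6 (20.1), SOCS3 (15.1), CLCF1 (11.4), LIF (8.94), LIFR (6.19), IL11 (5.89) and IL6R (1.78). There OSMR, IL6ST and STAT3 overlapped in turn, as did CLCF1, LIF, LIFR and IL11. IL6ST, IL6 and LIF stood higher in this order than with vehicle, and STAT3, SOCS3, CLCF1, LIFR and IL11 lower.

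The mean transcript length that the authors' software assigned to a gene, weighted by how abundant each of its transcripts was estimated to be, is a separate readout of transcript use. Of the 9 genes whose length varied, OSMR alone had groups that did not overlap, at 4297, 4445 and 4322 bases with vehicle and 3899, 4121 and 4239 with the extract. The difference of -268 bases had an exact two-sided permutation p of 0.1, the smallest that 3 against 3 libraries allow, and an adjusted p of 0.6 over the 9 genes. Groups did not overlap in length for 16.9% of all tested genes, a base that also holds genes of constant length. SOCS3 had 1 length, 2734 bases, in all 6 libraries.

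The kinases that the receptor chains activate differed from one another. Of 8 kinases and adaptors (JAK1, JAK2, JAK3, TYK2, PTPN11, GAB1, GRB2 and SHC1), 2 rose and 4 fell, with a median of -0.25. Calls over all tested genes were 31.9% higher and 31% lower. On log2(TPM + 1) 2 of the 8 rose and none fell. JAK2 was at 8.36, 9.11 and 7.89 normalized CPM with vehicle and at 13.3, 12.7 and 13.4 with the extract, a rise of 1.55-fold (log2 0.63 ± 0.088 SE, edgeR adjusted p = 2e-05) with no overlap. JAK1, the most prominent kinase of gp130 signalling, rose 1.12-fold (log2 0.17 ± 0.053 SE, edgeR adjusted p = 0.0119), but with vehicle replicate 1 left out it was not called (0.17, adjusted p = 0.0533). RAVER2 overlaps JAK1 on the opposite strand with means of 898 and 841 counts, so the JAK1 value is uncertain. TYK2 was not called (log2 -0.03 ± 0.049 SE, edgeR adjusted p = 0.64), and its direction turned with library size scaling and on the TPM scale. Among the adaptors that link the receptor to the RAS and MAPK branch, SHC1 fell 1.41-fold (log2 -0.50), PTPN11 1.21-fold (log2 -0.28) and GAB1 1.21-fold (log2 -0.28). RPL6 overlaps PTPN11 on the opposite strand (means of 16737 and 14263 counts) and PYGO2 overlaps SHC1 on the same strand (1520 and 1065), so both values are uncertain. The GAB1 call was lost without extract replicate 2 (-0.21, adjusted p = 0.0731) and with DESeq2 (-0.27, adjusted p = 0.0752). It was also lost with scaling by library size only (-0.20, edgeR adjusted p = 0.0621) and in every TPM setting. On log2(TPM + 1) SHC1 was -0.20 (limma adjusted p = 0.0546) and PTPN11 -0.03 (limma adjusted p = 0.706). Without mitochondrial genes these were -0.38 and -0.21, and both were called.

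Of STAT2, STAT4, STAT5A, STAT5B and STAT6, none rose and 4 fell in the count test, with a median of -0.35, against 1 higher and 1 lower on log2(TPM + 1). Shares over all tested genes in the count test were 31.9% higher and 31% lower. STAT4 fell 2.4-fold (log2 -1.26 ± 0.24 SE, edgeR adjusted p = 0.00032) from the low level of 1.13 ± 0.135 TPM (SD, n = 3). STAT6, which carries interleukin-4 signals, fell 1.31-fold (log2 -0.39) and STAT5B 1.28-fold (log2 -0.35). LRP1 overlaps STAT6 on the opposite strand with means of 5968 and 3924 counts, so the STAT6 value is uncertain.

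The remaining inhibitors moved in both directions, so the fall of SOCS3 was not shared by every SOCS gene. Of 14 inhibitors (the other SOCS genes, CISH, the PIAS genes and the phosphatases PTPN1, PTPN2 and PTPN6), 13 were tested, 3 rose and 6 fell, with a median of -0.15, against 4 higher and 3 lower on log2(TPM + 1). Among all tested genes 31.9% were called higher and 31% lower in the count test. SOCS1, an inhibitor of the Janus kinases, was at 7.27, 7.84 and 7.19 normalized CPM with vehicle and at 3.41, 2.75 and 2.5 with the extract, a fall of 2.57-fold (log2 -1.36 ± 0.14 SE, edgeR adjusted p = 7.4e-07). RMI2 overlaps SOCS1 on the opposite strand with means of 1671 and 930 counts, so the SOCS1 value is uncertain. SOCS2, known for restraint of growth hormone signalling, went the other way, from 1.63, 1.46 and 1.41 to 5.21, 4.91 and 4.96 normalized CPM, a rise of 3.36-fold (log2 1.75 ± 0.15 SE, edgeR adjusted p = 1.8e-07). SOCS5 fell 2.02-fold (log2 -1.01 ± 0.053 SE, edgeR adjusted p = 7.7e-10). PTPN2, a phosphatase that acts on Janus kinases and STATs, rose 1.26-fold (log2 0.34), PIAS2 rose 1.13-fold (log2 0.17) and PIAS1 fell 1.29-fold (log2 -0.37). The PIAS2 call was lost in 8 alternatives, among them DESeq2 (0.18, adjusted p = 0.0952). On the opposite strand, KATNAL2 overlaps PIAS2 (means of 271 and 179 counts) and CALML4 overlaps PIAS1 (287 and 250). SOCS2-AS1 overlaps SOCS2 in the same way (11 and 40.7), so these values are uncertain too.

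Of the 4 genes for shedding of IL6R and similar receptors, 1 rose and 3 fell, with a median of -0.18, beside 31.9% higher and 31% lower over all tested genes. ADAM17, the protease that releases IL6R and tumour necrosis factor, was at 38.2, 34.4 and 40.6 normalized CPM with vehicle and at 47.4, 54.4 and 75.3 with the extract. It was higher in every extract library, most of all in replicate 3. IAH1 overlaps ADAM17 on the opposite strand with means of 2120 and 2549 counts, so the value is uncertain. The rise of 1.56-fold (log2 0.65 ± 0.19 SE, edgeR adjusted p = 0.0317) was not called without vehicle replicate 1 (0.65, adjusted p = 0.0746), vehicle replicate 2 (0.58, adjusted p = 0.083) or extract replicate 2 (0.71, adjusted p = 0.0529), or with no filter on low counts (0.66, adjusted p = 0.0953). With the replicate block it was log2 0.63 ± 0.098 SE (edgeR adjusted p = 0.00044). The protease ADAM10 (log2 -0.20) and RHBDF1 (log2 -0.26) and RHBDF2 (log2 -0.16), which guide ADAM17 maturation, fell in the count test. On log2(TPM + 1) none of the 3 was called, at 0.05, 0.00 and 0.02. The RHBDF2 call was also lost when any 1 of 5 libraries was left out, with adjusted p from 0.0519 to 0.112.

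Genes known to respond to IL-6 or STAT3 did not move one way. Of 33 such genes, 24 were tested, 9 rose and 11 fell, with a median of -0.14, against 11 higher and 9 lower on log2(TPM + 1). The count test called 31.9% of all tested genes higher and 31% lower. PTX3, a secreted pentraxin, was at 182, 175 and 184 normalized CPM with vehicle and at 1381, 1362 and 1658 with the extract, a rise of 8.13-fold (log2 3.02 ± 0.08 SE, edgeR adjusted p = 1.5e-12). VEGFA, the angiogenic growth factor, rose 2.78-fold (log2 1.47) and NAMPT, an enzyme of NAD synthesis, 1.84-fold (log2 0.88). In the other direction, the acute-phase gene SAA1 fell 7.62-fold (log2 -2.93 ± 0.35 SE, edgeR adjusted p = 4.3e-06), from 117 to 15 summed counts. Its extract values of 0.117, 0.25 and 0.246 normalized CPM lay near the level of 3 counts. Expected counts of SAA1 and SAA2 were fractional, so reads may be divided between these genes and the size of the fall is uncertain. The immediate-early genes JUNB and FOS, both components of AP-1, fell 3.58-fold (log2 -1.84 ± 0.098 SE) and 2.76-fold (log2 -1.47 ± 0.18 SE). HOOK2 overlaps JUNB on the opposite strand with means of 754 and 456 counts, so the JUNB value is uncertain. Most of the 33 genes answer to several pathways, and the 9 untested ones, among them CRP and the fibrinogen genes, had few or no counts in these cells.

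Of 18 regulators of IL6 transcription or mRNA stability, 3 rose and 11 fell, with a median of -0.30, against 7 higher and 7 lower on log2(TPM + 1). For all tested genes the count test gave 31.9% higher and 31% lower. CEBPB and CEBPD are counted both here and among the STAT3 and IL-6 targets. ZC3H12A, whose product Regnase-1 degrades IL6 mRNA, was at 38.5, 37.2 and 37.6 normalized CPM with vehicle and at 17.9, 17.2 and 17.6 with the extract, a fall of 2.15-fold (log2 -1.10 ± 0.062 SE, edgeR adjusted p = 1.6e-09). CEBPD, a transcription factor that activates IL6 and is itself induced by STAT3, fell 2.1-fold (log2 -1.07 ± 0.19 SE, edgeR adjusted p = 0.00487), and NFKBIA, the inhibitor of NF-kappaB, fell 1.83-fold (log2 -0.87). ATF4, a stress-induced transcription factor, rose 1.42-fold (log2 0.50), FOSL1 1.19-fold (log2 0.25) and RC3H2, an RNA-binding protein of the Roquin family, 1.17-fold (log2 0.23). The FOSL1 groups overlapped, and its call was lost without any 1 of 5 libraries, with adjusted p from 0.069 to 0.126. Whether any of these changes bears on IL6 was not tested. After TPM were rescaled without mitochondrial genes, the calls stood nearer to the count test: 4 higher and 9 lower among these regulators, 9 and 9 among the STAT3 and IL-6 targets, 2 and 4 among the inhibitors, 0 and 3 among the other STAT genes, and 2 and 2 among the kinases and adaptors.

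**Figure D4:**
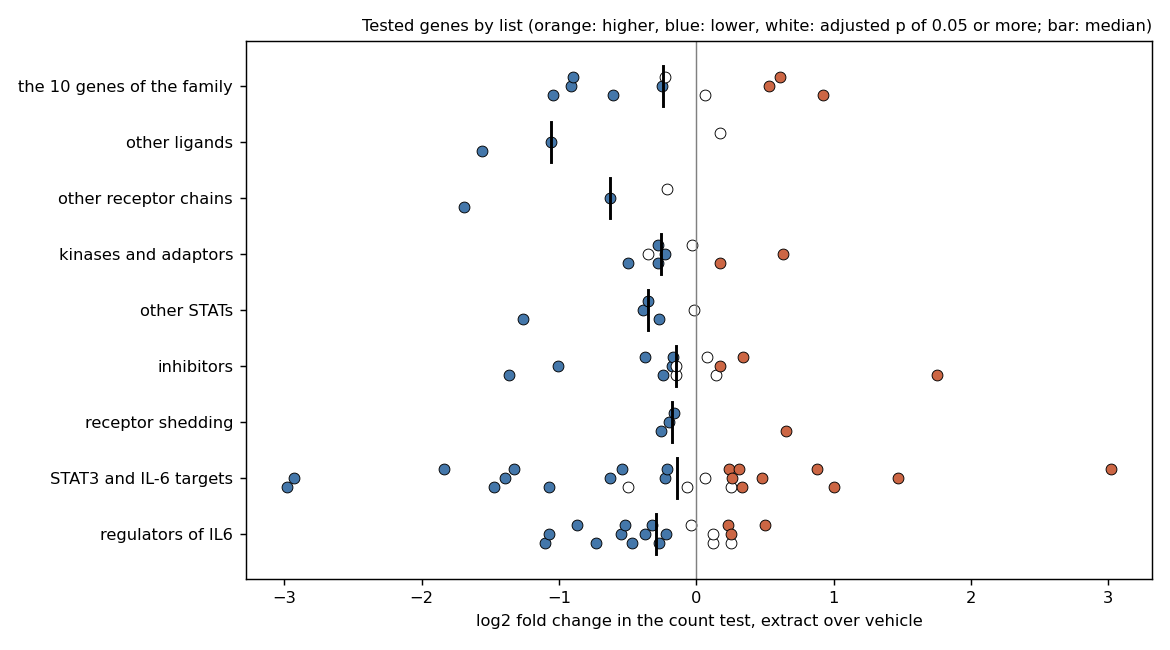
Log2 fold change in the count test (x axis) of each tested gene in the family and in 8 lists of related genes; orange, higher; blue, lower; white, adjusted p of 0.05 or more; black bars, list medians. The other receptor chains have a median of -0.63, while STAT3 and IL-6 targets spread from the SAA genes at the left to PTX3, at 3.02.

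The libraries held 22615150 to 27615196 expected counts, and 3 counts in a library equal 0.109 to 0.133 CPM, a limit of counting error only. The first principal component (74.2% of the variance) separated the groups. The second (7.99%) ran from extract replicate 2, at -19.9, to extract replicate 3, at 27.6, with the remaining libraries from -7.99 to 4.86. Relative to the mean of extract replicates 1 and 2, replicate 3 was higher by log2 0.36 for OSMR, 0.29 for IL6ST and 0.28 for LIFR, and differed by -0.24 for SOCS3. The keratins KRT8, KRT18 and KRT19 were abundant, whereas the epithelial junction gene CDH1 reached at most 0.23 TPM and stromal genes such as VIM and COL1A1 were high, so the data show a mixed rather than a plainly epithelial pattern. Summed TPM of 7 mesenchymal and stromal markers was 3764 to 3843 with vehicle and 2770 to 2965 with the extract, and that of 6 epithelial markers 1574 to 1605 and 1361 to 1419. Of the 7 mesenchymal and stromal markers, 6 were called lower and 1, CDH2, was called higher (1.21-fold). The fall of their sum was mostly COL1A1, from 1444 to 699 TPM, while VIM went from 2048 to 1969. The epithelial sum is mostly KRT8, KRT18 and KRT19, which fell, while KRT7 rose 1.92-fold and EPCAM 1.64-fold. Of 7 immune markers CD3E and MS4A1 were at 0 in all libraries, and the sum of 30.3 to 34.1 TPM with vehicle and 35.2 to 64.1 with the extract was nearly all CD68, which was not called. CD14 fell 7.76-fold, from 174 to 22 summed counts. The part of these shifts in the changes above was not tested.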

How the data were processed

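RNA of 6 libraries of 12Z cells was compared, 3 with frankincense extract and 3 with vehicle, grouped by the labels. The submitters' processing notes name the aligner STAR, the quantifier RSEM (1.3.1) and the build GRCh38. For the annotation, strand setting, filters and aligner version the entry is: not given in the sources used here. Deposited expected counts are estimated reads of each gene and need not be whole, per the file headers. The deposited TPM is abundance scaled to 1 total per library, and the deposited transcript length is a mean weighted by abundance. FPKM values, also deposited, were not used.

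After rounding, expected counts went into edgeR 4.0.16 under R 4.3.3 (filterByExpr, TMM factors, robust quasi-likelihood fit, two-sided, Benjamini-Hochberg over all 16719 genes kept). Normalized CPM uses TMM-scaled library sizes. Each SE is the absolute log2 fold change over the root of F. TPM was tested with limma 3.58.1 (trend, pseudocount 1 or 0.1), and the fold change is on the log2(value + pseudocount) scale, which understates changes of low genes. DESeq2 1.42.0, voom, other scalings and filters (none, or 5 CPM in 3 libraries), a replicate block and leaving out each library were alternatives. The scripts were tested on simulated counts with 200 changed genes, as many raised as lowered. In the real data 10509 of 16719 genes were called, so that simulation does not check the normalization for such a comparison. Library pairs of a group differed by a chi-square of 3.65 to 12.9 per degree of freedom, so none looked like 1 library deposited again. This does not show separate cultures.

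Symbols came from the gene name table, coordinates and overlaps from GENCODE 29, and promoters from RefSeq. GENCODE 29 held 13 of the 50 STAT3 transcripts named in the deposited data. The coordinates and overlaps thus come from another annotation than the counts. All 10 family members are named, plus from each list the called genes with the largest change (up to 3 per direction, at least 1 CPM in the higher group) and 7 fixed genes. Some genes of the lists and of this rule are not reported here. Other genes, such as RMI2, GALT and the marker genes, stand only as context. Members and lists were chosen with earlier results of these data known. Protein sequences were not analysed here.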

Additional observations from a re-analysis of the deposited data

How the results depend on the processing

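IL6, LIF, IL11, IL6ST, LIFR and SOCS3 kept direction and call in all 19 alternatives, with log2 ranges of 0.79 to 1.11, 0.55 to 0.83, -1.0 to -0.65, 0.44 to 0.80, -0.99 to -0.62 and -1.1 to -0.73. The cause of the changes below was not tested. On log2(TPM + 1) and log2(TPM + 0.1), genes called lower numbered 2491 and 2490 and family members called lower 3 and 3, IL6R was -0.24 and -0.35 (not called), STAT3 0.31 and 0.32 (called), CLCF1 0.01 and 0.01, OSMR 0.10 and 0.10, RHBDF1 0.00 and 0.00 (no difference), ADAM10 0.05 and 0.05, RHBDF2 0.02 and 0.02 and TYK2 0.16 and 0.16. With log2(TPM + 1) and no frankincense replicate 3, a setting chosen after seeing the data, genes called lower numbered 2804, and values were STAT3 0.26 (called), CLCF1 -0.02 and TYK2 0.15. CLCF1 was not called with library size only (-0.17), DESeq2 (-0.24) or TPM without mitochondrial genes (-0.16). TYK2 was 0.05 with library size only. OSMR was called with median-of-ratios factors (-0.23), upper-quartile factors (-0.28), no filter (-0.22), at least 5 CPM (-0.26), DESeq2 (-0.22), limma-voom (-0.24) and the replicate block (-0.24). Leaving out each library gave -0.27 to -0.21 for CLCF1 and -0.35 to -0.16 for OSMR.

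To look for pairing, the deviations of all genes from their group means were correlated between vehicle and extract libraries. For same-numbered libraries these deviations correlated at 0.05, 0.101 and 0.0352, so the numbers were not taken to pair them. Even so, the deviations of every library correlated best with those of its own number. With the replicate block 10591 genes were called against 10509, but single genes shifted in either direction. The edgeR adjusted p of OSMR went from 0.0515 to 0.00412 and that of ADAM17 from 0.0317 to 0.00044. For JAK1 it went from 0.0119 to 0.0165. Named pathway genes gave 643 values under alternatives, of which 581 kept direction and side of the threshold, 52 lost a call and 10 had the other sign, RHBDF1 only past the second decimal. Depth limits OSM, IL27, IL31 and CNTFR, which were too low to test.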
